A study of Mus musculus with 9 samples.

Results

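The genes described are 10 that mark tissue mast cells in mouse skin, out of 55401 genes in the count table. They were chosen by name, as the mast cell proteases, the enzyme that makes histamine, the chains of the high-affinity IgE receptor and the receptors Kit and Mrgprb2. All 10 were found in the tables and all 10 were among the 20817 genes with enough counts to be tested. The libraries came from the back skin of male C57BL/6 mice of 6 to 8 weeks with dermatitis raised by DNCB, a small reactive molecule that sensitizes skin. Both groups were shaved, painted with 200 µL of 1% DNCB on day 1 and with 100 µL of 0.5% DNCB at intervals from day 4 to day 21, and both lasted to day 28. The 4 Model mice received an equal amount of water, and the 5 FJDHF-M mice received Fangji Dihuang formulation, an extract of plant drugs given at the medium dose of the study, each day after day 7. No library from undamaged skin was analysed here, so the values show treated against untreated dermatitis only.

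The columns of the tables carry codes and no group names. The 5 columns whose code starts with MR were taken as FJDHF-M and the 4 that start with MXL as Model, from the letters and the numbers of columns, and the columns were not tied to single mice. Every direction given here rests on that assignment. A code such as MR3_4 was taken as 1 library, and whether such a code marks pooled skin was not tested. Total counts were 74648669 to 79474215, and at these depths 3 counts of a gene correspond to 0.0375 to 0.0415 CPM, the counts of a gene relative to the library total on a common scale. The skin held the defining genes of keratinocytes, fibroblasts, endothelial cells and adipocytes in every library, and it held a varying amount of skeletal muscle RNA, with a marker score of 5.69 to 10.7. Marker scores are means of log2(CPM + 0.5) over a list of marker genes. The score of differentiated keratinocyte genes was 7.37 to 8.68 in Model and 8.62 to 9.51 in FJDHF-M, with 5 of its 6 genes at an unadjusted p under 0.05, and its part in the values of the mast cell genes was not tested.

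Mast cells are resident immune cells that sit around vessels and nerves of the dermis. They carry IgE on the receptor FcεRI, and when an antigen bridges that IgE they release granules that hold histamine, heparin and proteases. The granules of connective tissue mast cells of mouse skin hold the chymases Mcpt4 (mMCP-4) and Cma1 (mMCP-5), the tryptase Tpsb2 (mMCP-6) and the carboxypeptidase Cpa3, all packed on heparin. Survival of the cell depends on Kit, the receptor for stem cell factor, and many small cationic drugs and peptides release granules through Mrgprb2 without any IgE.

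Promoter sequences are shown for the 4 genes that later turn out to order the libraries alike, and for the second chain of the IgE receptor. Each is the 250 bases before the start of the gene in RefSeq on GRCm38.p6, on the minus strand of the genome and read 5′ to 3′ along the gene. Capitals mark GATAA or its reverse complement TTATC, the core that GATA factors such as the mast cell regulator GATA2 can bind. The windows are chr14:55944676-55944925 for Cma1, chr14:56062311-56062560 for Mcpt4, chr3:20242182-20242431 for Cpa3, chr1:173227230-173227479 for Fcer1a and chr19:11623720-11623969 for Ms4a2.
Cma1: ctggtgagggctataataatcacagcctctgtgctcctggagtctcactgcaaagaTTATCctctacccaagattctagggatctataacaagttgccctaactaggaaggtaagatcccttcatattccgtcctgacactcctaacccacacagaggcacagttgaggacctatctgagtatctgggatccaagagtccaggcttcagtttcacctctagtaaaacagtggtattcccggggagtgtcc
Mcpt4: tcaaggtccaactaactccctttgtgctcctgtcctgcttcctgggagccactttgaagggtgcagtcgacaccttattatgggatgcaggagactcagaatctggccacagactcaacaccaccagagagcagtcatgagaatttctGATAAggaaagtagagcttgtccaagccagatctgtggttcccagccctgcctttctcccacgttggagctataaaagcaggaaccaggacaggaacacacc
Cpa3: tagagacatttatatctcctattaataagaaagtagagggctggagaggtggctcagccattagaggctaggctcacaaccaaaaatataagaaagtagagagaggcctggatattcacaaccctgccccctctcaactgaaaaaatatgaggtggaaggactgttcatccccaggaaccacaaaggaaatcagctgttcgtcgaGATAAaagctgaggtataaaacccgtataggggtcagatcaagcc
Fcer1a: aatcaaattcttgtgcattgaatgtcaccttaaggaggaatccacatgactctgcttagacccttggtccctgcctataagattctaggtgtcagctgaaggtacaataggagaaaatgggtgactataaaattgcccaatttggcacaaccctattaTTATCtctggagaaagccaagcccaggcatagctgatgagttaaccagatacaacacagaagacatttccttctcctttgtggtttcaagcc
Ms4a2: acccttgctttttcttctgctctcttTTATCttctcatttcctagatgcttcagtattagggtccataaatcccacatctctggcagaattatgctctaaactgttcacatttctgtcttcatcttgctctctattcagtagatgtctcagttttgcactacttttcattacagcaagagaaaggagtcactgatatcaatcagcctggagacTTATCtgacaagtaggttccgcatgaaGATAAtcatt

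GATAA on either strand was present in 6 of the 8 members with a RefSeq promoter, and 22.6% of 32851 promoters of the same length held it. Those promoters were not matched to the members in GC content, so the shares do not show enrichment. The 6 windows with GATAA had 37.2% to 51.2% GC, and those of Kit and Hdc had 70.8% and 48.8%. Cma1, Mcpt4, Cpa3, Fcer1a and Mrgprb2 had 1 match each, at 194, 102, 45, 92 and 48 bases before the start. Ms4a2 had 3 matches, at 224, 37 and 10 bases before the start, and no letters of this kind were found in the windows of Kit and Hdc. The E-box CACGTG, a sequence that MITF can bind, was in 0 of the 8 windows and in 6.02% of all promoters. The form CATGTG on either strand was in the window of Fcer1a and in 12.3% of all promoters. Tpsb2 and Tpsab1 had no entry.

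The chymases and Cpa3 were the most abundant members in every library. Levels between genes were compared as FPKM, the deposited unit in which counts are divided by transcript length and by library depth. Mcpt4 (ENSMUSG00000061068, chromosome 14, 56059629 to 56062313 on GRCm38) is a chymase that cleaves extracellular matrix and other proteins at aromatic residues. Its FPKM values in Model were 77.5 in MXL1, 145.6 in MXL12, 83.7 in MXL3_4 and 125.0 in MXL_3. In FJDHF-M the FPKM of Mcpt4 was 118.1 in MR1, 61.9 in MR3, 114.3 in MR3_4, 92.6 in MR4_5 and 145.3 in MR5. The groups overlapped over most of their range, MR3 was lowest, and MXL12 and MR5 were almost level at the top. The group means were 108.0 ± 32.8 FPKM (SD, n = 4) in Model and 106.4 ± 31.1 FPKM (SD, n = 5) in FJDHF-M. The log2 fold change, FJDHF-M minus Model here and below, was -0.048 with a standard error of 0.28 (unadjusted p = 0.867, adjusted p = 1.00, edgeR's quasi-likelihood test).

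Cpa3 (ENSMUSG00000001865, chromosome 3, 20215620 to 20242181), which trims peptides from their carboxyl end, had 49.2 FPKM in MXL1, 93.7 in MXL12, 52.0 in MXL3_4 and 75.4 in MXL_3. Its FPKM in FJDHF-M was 72.4 in MR1, 37.0 in MR3, 72.5 in MR3_4, 60.0 in MR4_5 and 113.0 in MR5. MR5 was highest and MR3 lowest, so the FJDHF-M libraries spanned the whole range and the Model libraries lay inside it. The log2 fold change of Cpa3 was 0.043 with a standard error of 0.31 (unadjusted p = 0.895, edgeR).

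Cma1 (ENSMUSG00000022225, chromosome 14, 55941451 to 55944675) encodes mMCP-5, an α-chymase by sequence. Its FPKM in Model was 44.0 in MXL1, 86.3 in MXL12, 42.2 in MXL3_4 and 74.7 in MXL_3, and in FJDHF-M it was 69.0 in MR1, 34.7 in MR3, 76.8 in MR3_4, 63.2 in MR4_5 and 87.1 in MR5. The libraries fell in nearly the same order as for Cpa3, with MR3 lowest and MR5 and MXL12 highest. The log2 fold change of Cma1 was 0.072 with a standard error of 0.31 (unadjusted p = 0.821, edgeR). Cma1 and Mcpt4 are related genes on the same chromosome, and their coding sequences were identical at 67.7% of 734 aligned bases, with 27 bases as the longest identical run. Of 1009 windows of 100 bases along Mcpt4, 1 was shared with another gene, Cma2, and none of Cma1 was shared.

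**Figure D1:**
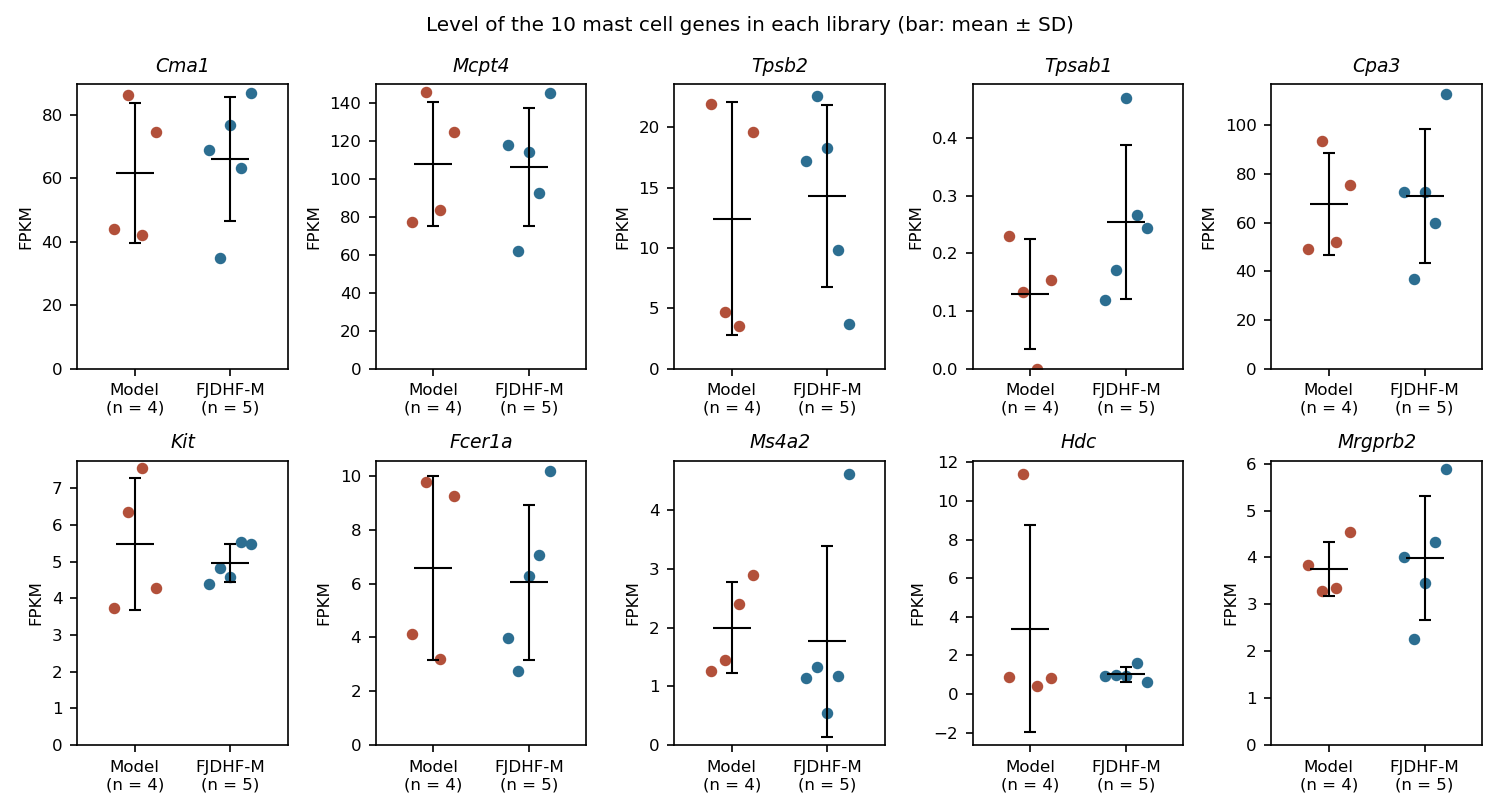
FPKM of each of the 10 genes (vertical axes, linear) in the 4 Model and 5 FJDHF-M libraries, with 1 point for each library, a horizontal bar for the mean and whiskers for ± SD. The groups overlapped in all 10 genes. A single Model library, MXL12, stood at 11.4 FPKM for Hdc, and a single FJDHF-M library, MR5, stood at 4.62 FPKM for Ms4a2.

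The tryptase Tpsb2 did not follow the other proteases. Tpsb2 (ENSMUSG00000033825, chromosome 17, 25366305 to 25369098) encodes mMCP-6, a trypsin-like enzyme that works as a tetramer on heparin. Its FPKM in Model was 21.9 in MXL1, 4.68 in MXL12, 3.53 in MXL3_4 and 19.6 in MXL_3. In FJDHF-M the FPKM of Tpsb2 was 17.2 in MR1, 22.6 in MR3, 18.3 in MR3_4, 9.84 in MR4_5 and 3.65 in MR5. In 3 libraries, MXL12, MXL3_4 and MR5, the gene was under 5 FPKM, and MR3, the library lowest in the chymases, was the highest in Tpsb2. The highest library was 6.39 times the lowest, against 2.35 times for Mcpt4. Libraries of both groups stood at either end, and the log2 fold change was 0.18 with a standard error of 0.63 (unadjusted p = 0.776, edgeR). Its sign turned without MR3 (-0.051), MXL12 (-0.089) or MXL3_4 (-0.12).

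Tpsab1 (ENSMUSG00000024173, chromosome 17, 25343245 to 25345562) is the neighbouring tryptase gene, mMCP-7 in other strains. As background, C57BL/6 mice carry a splice site change in this gene and make no mMCP-7, and the RefSeq gene table lists it as a transcribed pseudogene. Its counts in Model were 40 in MXL1, 23 in MXL12, 0 in MXL3_4 and 27 in MXL_3, and in FJDHF-M they were 21 in MR1, 31 in MR3, 79 in MR3_4, 46 in MR4_5 and 42 in MR5. The ranges overlapped, although the 0 lay in Model and the highest value in FJDHF-M. The count of 0 in MXL3_4 allows a level of up to 0.0387 CPM, and this covers counting error only. In FPKM the means were 0.129 ± 0.0957 (SD, n = 4) and 0.254 ± 0.134 (SD, n = 5), and the log2 fold change was 0.95 with a standard error of 0.86 (unadjusted p = 0.295, edgeR). Leaving out 1 library moved the log2 fold change to 0.54 without MXL3_4, 0.59 without MR3_4 and 1.34 without MXL1.

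A stretch of both tryptase coding sequences shows how far the genes have parted. It is the gap-free run of 90 bases with the most differences, 41, in the GENCODE M21 transcripts, and capitals mark the bases that differ. It runs over coding bases 240 to 329 of Tpsb2 and 342 to 431 of Tpsab1.
Tpsb2: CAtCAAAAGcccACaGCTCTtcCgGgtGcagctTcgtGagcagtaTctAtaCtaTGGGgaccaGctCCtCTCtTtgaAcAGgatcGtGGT
Tpsab1: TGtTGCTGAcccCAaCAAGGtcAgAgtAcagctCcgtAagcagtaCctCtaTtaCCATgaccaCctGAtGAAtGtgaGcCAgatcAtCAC

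Over 830 aligned coding bases the tryptases were identical at 75.8%, and the longest identical run was 39 bases. None of the windows of 100 bases in either gene was shared with another gene. Exons of the 10 members overlapped no exon of another gene in GENCODE M21, on either strand.

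The make-up of the protease transcripts was close to fixed apart from Tpsb2. The summed FPKM of the 5 proteases was 249.9 ± 74.0 (SD, n = 4) in Model and 258.1 ± 71.8 (SD, n = 5) in FJDHF-M, from 156.4 in MR3 to 349.2 in MR5. Mcpt4 made up 39.6% to 46.1% of that sum, Cpa3 23.6% to 32.4% and Cma1 22.2% to 28.0%. Tpsb2 ranged from 1.05% in MR5 to 14.4% in MR3, and its mean share was 5.35% ± 4.66 (SD, n = 4) in Model and 6.50% ± 4.93 (SD, n = 5) in FJDHF-M. Tpsab1 was at most 0.166% of the sum.

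**Figure D2:**
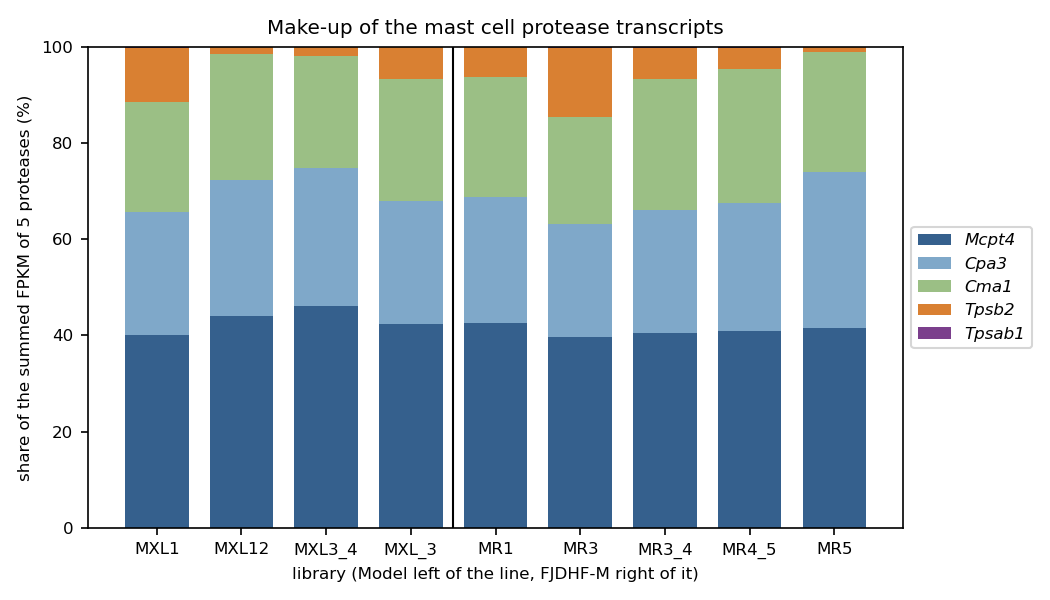
Share of the summed FPKM of 5 proteases (vertical axis, percent) in each library, with Model left of the line and FJDHF-M right of it, and 1 colour for each gene. The Tpsb2 share was 1.05% to 1.95% in MR5, MXL12 and MXL3_4 and 4.36% to 14.4% in the other 6 libraries.

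Ordered by mean FPKM over the 9 libraries, the members ran from Mcpt4 (107.1) through Cpa3 (69.5), Cma1 (64.2), Tpsb2 (13.5), Fcer1a (6.29), Kit (5.19), Mrgprb2 (3.88), Hdc (2.07) and Ms4a2 (1.87) to Tpsab1 (0.198). Of the 9 steps between neighbours, 4 were larger than the SD of the log2 ratio of (FPKM + 0.1) over the libraries. Mcpt4 exceeded Cpa3 in 9 of 9 libraries, by 0.64 ± 0.11 (SD) on the log2 scale. Cma1 exceeded Tpsb2 in 9 of 9, by 2.50 ± 1.35. Mrgprb2 exceeded Hdc in 8 of 9, by 1.62 ± 1.41, with MXL12 as the exception. Ms4a2 exceeded Tpsab1 in 9 of 9. Cpa3 and Cma1 did not differ beyond their spread (0.11 ± 0.16), nor did Tpsb2 and Fcer1a, Fcer1a and Kit, Kit and Mrgprb2, or Hdc and Ms4a2.

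Both chains of the IgE receptor that mast cells do not share with most other cells were low in comparison. Fcer1a (ENSMUSG00000005339, chromosome 1, 173221284 to 173227214) encodes the α chain, which binds IgE itself. Its FPKM in Model was 4.12 in MXL1, 9.79 in MXL12, 3.20 in MXL3_4 and 9.27 in MXL_3, and in FJDHF-M it was 3.97 in MR1, 2.75 in MR3, 6.27 in MR3_4, 7.08 in MR4_5 and 10.2 in MR5. Again MR3 was lowest and MR5 and MXL12 highest. The log2 fold change was -0.16 with a standard error of 0.45 (unadjusted p = 0.733, edgeR).

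Ms4a2 (ENSMUSG00000024680, chromosome 19, 11615523 to 11623719) encodes the β chain, which amplifies the signal of the receptor. Its FPKM in Model was 1.27 in MXL1, 1.44 in MXL12, 2.40 in MXL3_4 and 2.90 in MXL_3. In FJDHF-M the FPKM of Ms4a2 was 1.15 in MR1, 1.34 in MR3, 0.540 in MR3_4, 1.18 in MR4_5 and 4.62 in MR5. Apart from MR5 the FJDHF-M libraries lay at or under 1.34 FPKM, among or under the 2 lower Model libraries, and MR5 lay above all of them. With all 9 libraries the log2 fold change was -0.23 with a standard error of 0.56 (unadjusted p = 0.686, edgeR). Without MR5 it was -0.97 (unadjusted p = 0.0318). Of 2292 windows of 100 bases along Ms4a2, 13 were shared with Ms4a4b, a relative in the same gene cluster.

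Kit and Mrgprb2 had the smallest SD of log2(CPM + 0.5) over the 9 libraries among the 10 members. Kit (ENSMUSG00000005672, chromosome 5, 75574916 to 75656722) had 3.72 FPKM in MXL1, 6.36 in MXL12, 7.55 in MXL3_4 and 4.28 in MXL_3. Its FPKM in FJDHF-M was 4.38 in MR1, 4.84 in MR3, 4.57 in MR3_4, 5.53 in MR4_5 and 5.47 in MR5. The Model libraries took both ends of the range and the FJDHF-M libraries the middle. Its log2 fold change was -0.18 with a standard error of 0.22 (unadjusted p = 0.433, edgeR). Kit is also a gene of melanocytes, whose marker score was 3.17 to 5.28 in Model and 4.23 to 5.63 in FJDHF-M, and the part of these cells in the Kit values was not tested.

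Mrgprb2 (ENSMUSG00000050425, chromosome 7, 48550965 to 48558086) had 3.84 FPKM in MXL1, 3.29 in MXL12, 3.34 in MXL3_4 and 4.54 in MXL_3. Its FPKM in FJDHF-M was 4.02 in MR1, 2.25 in MR3, 3.45 in MR3_4, 4.32 in MR4_5 and 5.88 in MR5. The order shared its ends with the chymases, MR3 low and MR5 high, but MXL12 was among the lower libraries. For the group difference the log2 fold change was 0.054 with a standard error of 0.28 (unadjusted p = 0.850, edgeR).

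Hdc had the largest fitted fold change, and 1 library set it. Hdc (ENSMUSG00000027360, chromosome 2, 126593667 to 126618678) encodes histidine decarboxylase, the enzyme that makes histamine from histidine. Its FPKM in Model was 0.862 in MXL1, 11.4 in MXL12, 0.430 in MXL3_4 and 0.828 in MXL_3, and in FJDHF-M it was 0.925 in MR1, 0.981 in MR3, 0.933 in MR3_4, 1.63 in MR4_5 and 0.613 in MR5. MXL12 held 5820 counts and the other 8 libraries 230 to 842. The remaining Model libraries lay at or under most FJDHF-M libraries. The log2 fold change was -1.75 with a standard error of 0.85 (unadjusted p = 0.0662, adjusted p = 1.00, edgeR). Without MXL12 it was 0.49 (unadjusted p = 0.207), so the direction turned. On log2 levels the exact permutation test gave p = 0.794, two-sided.

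Neutrophils and basophils also use Hdc, and some of their markers were highest in the same library. The neutrophil marker score was 4.20 in MXL12 and 1.26 to 3.20 in the other 8 libraries, with all 9 of its markers in the table and tested and with Ly6g and Camp at 0 in some libraries. Of these markers 7 of 9 were highest in MXL12. The other two were highest in MXL_3, Ngp with 15.3 FPKM there and 2.38 in MXL12, and Camp with 2.80 FPKM there and 0.648 in MXL12. The score was 1.26 to 4.20 in Model and 1.88 to 2.91 in FJDHF-M. S100a9, an abundant neutrophil protein gene, had 464.4 FPKM in MXL12 and 10.5 to 138.9 FPKM elsewhere. For Mcpt8, a basophil protease, 121 reads were counted in MXL12 and 2 to 30 elsewhere, and the basophil score was 0.675 in MXL12 against -0.114 to 0.563. Of the 5 basophil markers Mcpt8 and Cd200r3 were highest in MXL12, Prss34 was at 0 there and in 3 other libraries, and Il4 and Il3ra were highest in other libraries. The basophil score is not separate from mast cell genes. Il4 and Il3ra are also in the mast cell lists used below, and Cd200r3 had r of 0.90 with the members' mean. Neither score of MXL12 passed Dixon's test for a library that stands apart. The log2 fold change of Hdc was -0.56 with the neutrophil score as a covariate (unadjusted p = 0.287), -0.72 with the skeletal muscle score (unadjusted p = 0.319) and -0.83 with the GC index (unadjusted p = 0.349). Of the other members, Mcpt4, Kit and Tpsb2 had more FPKM in MXL12 than in MR5. Cma1, Cpa3, Fcer1a, Ms4a2, Mrgprb2 and Tpsab1 had less in MXL12 than in MR5. The part of neutrophils, basophils or mast cells in the Hdc value was not tested.

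**Figure D3:**
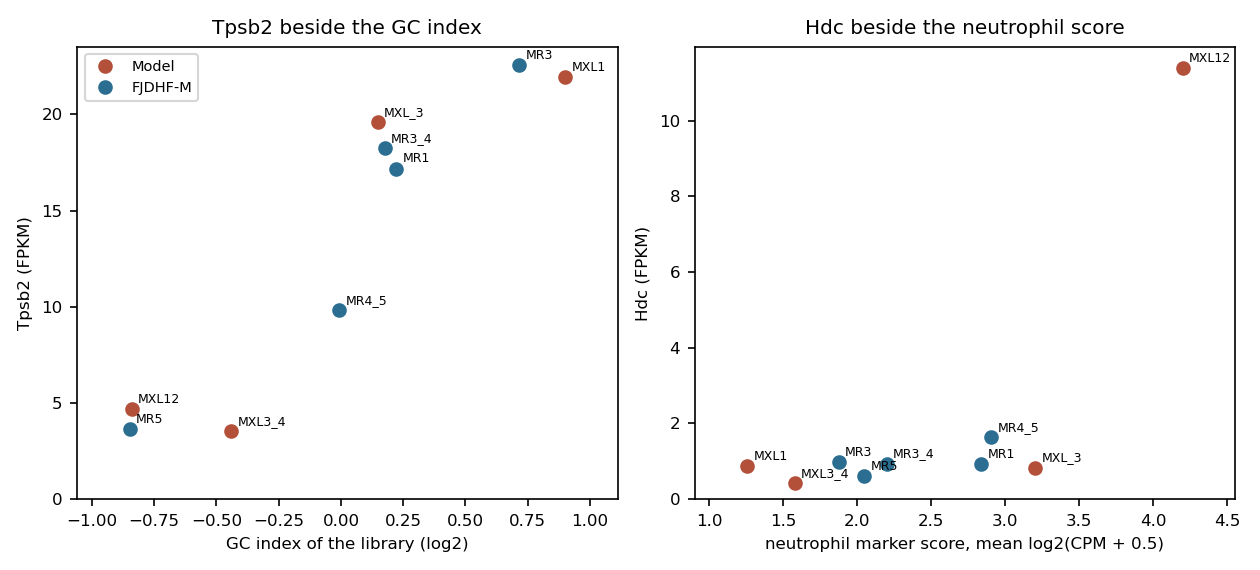
Left, FPKM of Tpsb2 (vertical) against the GC index of each library (horizontal, log2, the median deviation of GC-rich genes minus that of GC-poor genes). Right, FPKM of Hdc (vertical) against the neutrophil marker score (horizontal, mean log2(CPM + 0.5)). Points are the 9 libraries in the colours of their groups. The libraries with the most negative index, MR5, MXL12 and MXL3_4, had the lowest Tpsb2, and MXL12 was highest on both axes of the right panel.

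No member passed a test between the groups. Counted over all 20817 tested genes, 0 (0% of them) passed an adjusted p under 0.05 with a change of at least 2-fold in edgeR's quasi-likelihood test, with 326 genes at an unadjusted p under 0.05, and DESeq2 called 2 genes and limma 0. At the unadjusted p, 0 of the 10 members passed, and 1.57% of tested genes did. The groups did not overlap in 0 of the 10 members and in 0.514% of tested genes. Of the members, 5 had a log2 fold change above 0 and 5 below, with a median of -0.0026, and over all tested genes 44.1% were above 0 and the median was -0.032. On log2(CPM + 0.5), the two-sided exact permutation test over 126 splits gave p values from 0.167 for Tpsab1 to 1.00 for Cpa3, where 0.00794 is the smallest it allows. Adjusted over all tested genes each of them was 1.

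**Figure D4:**
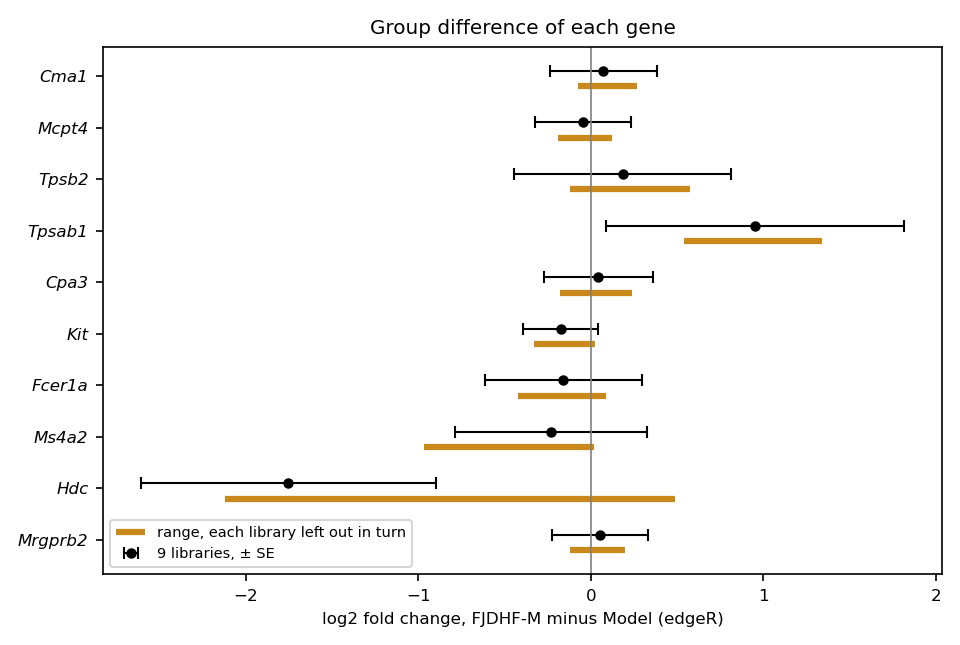
Log2 fold change of each gene, FJDHF-M minus Model (horizontal axis), from edgeR's quasi-likelihood fit. Points with whiskers are the 9 libraries with ± SE, and thick lines are the range over fits that each lack 1 library. The thick lines crossed 0 in each gene other than Tpsab1, and the line of Hdc ran from -2.12 to 0.49.

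The spread between libraries was wide for most of these genes. The SD of log2(CPM + 0.5) over the 9 libraries was 0.31 for Kit, 0.36 for Mrgprb2, 0.45 for Mcpt4 and for Tpsab1, 0.50 for Cma1, 0.51 for Cpa3, 0.67 for Fcer1a, 0.80 for Ms4a2, 1.10 for Tpsb2 and 1.30 for Hdc. The median over all tested genes was 0.35, and 9 of the 10 members lay above it. Among tested genes of a like level, 96.3% varied less than Tpsb2 and 98.1% less than Hdc. For Mrgprb2 that share was 37.3% and for Kit 55.1%.

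The 3 abundant proteases and Fcer1a varied together from library to library. Correlations over the 9 libraries are given as a description, since both groups, depth scaling and base composition enter them. Pearson's r was 0.98 between Mcpt4 and Cpa3, 0.97 between Cma1 and Mcpt4 and 0.95 between Cma1 and Cpa3. Fcer1a had r of 0.88 with Cma1, 0.86 with Cpa3 and 0.84 with Mcpt4. For these 4 genes the deviation from the gene's own mean was -0.98 to -0.78 on the log2 scale in MR3 and 0.46 to 0.75 in MR5. In bulk skin, fewer mast cells and less RNA per mast cell cannot be told apart. Mrgprb2 had r of 0.68 with Cma1 and Mcpt4 and 0.74 with Cpa3, and Ms4a2 had r of 0.14 to 0.36 with the 3 proteases. By ranks these genes differed less, with Spearman's rho of 0.32 to 0.50 for Mrgprb2 and 0.22 to 0.38 for Ms4a2. Kit had r of 0.08 to 0.20 with these proteases and 0.10 with Fcer1a.

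Tpsb2 did not follow this order, with r of -0.25 with Cma1, -0.36 with Mcpt4 and -0.46 with Cpa3, and of -0.84 with Kit. In MR3 it was 0.99 above its own mean on the log2 scale, where the chymases and Cpa3 were 0.78 to 0.88 below theirs. In MR5 Tpsb2 was 1.52 below its mean, where those genes were 0.46 to 0.74 above. MXL12 showed the same contrast as MR5.

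**Figure D5:**
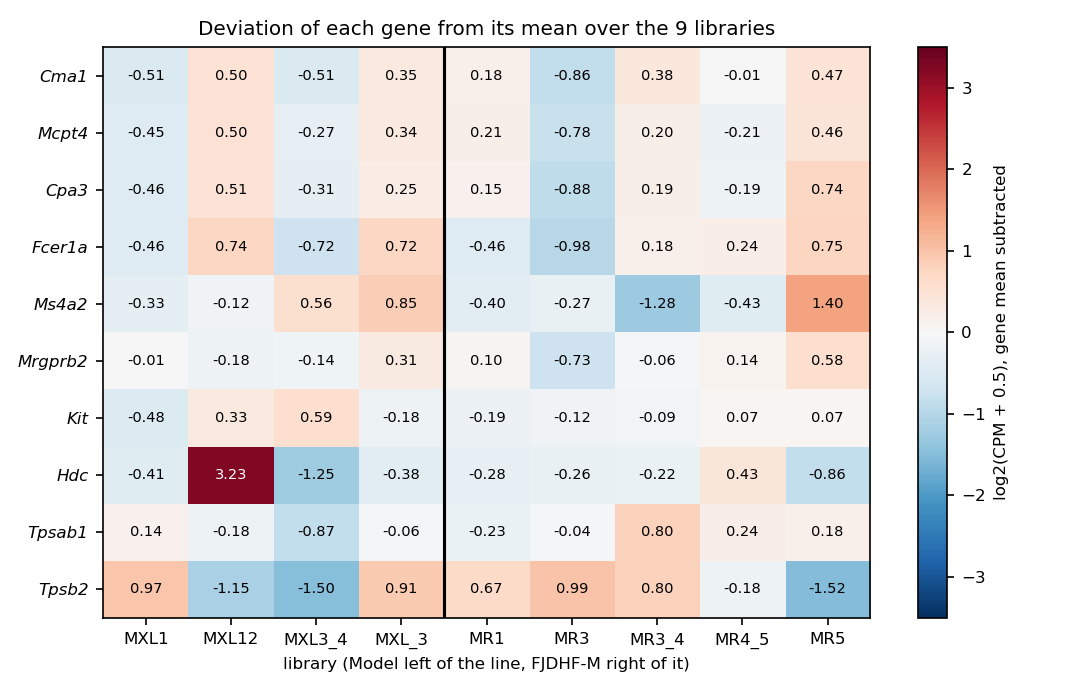
Deviation of each gene from its own mean over the 9 libraries, on log2(CPM + 0.5), with genes in rows, libraries in columns, Model left of the line and FJDHF-M right of it. Red cells are above the gene's mean and blue cells below. Cma1, Mcpt4, Cpa3 and Fcer1a had the same colours in most columns, Tpsb2 had the opposite colour in MXL1, MXL12, MR3 and MR5, and Hdc reached 3.23 in MXL12.

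The libraries also differed in how well GC-rich transcripts were represented, and Tpsb2 is GC-rich. Its longest transcript had 56.9% GC, in decile 9 of the tested genes ordered by GC content, and the other members had 37.6% to 54.5%. A GC index was taken as the median deviation of the GC-richest decile of genes minus that of the GC-poorest decile. It was 0.90 in MXL1, -0.84 in MXL12, -0.44 in MXL3_4, 0.15 in MXL_3, 0.22 in MR1, 0.72 in MR3, 0.18 in MR3_4, -0.0068 in MR4_5 and -0.85 in MR5. The 3 libraries with the lowest index were the 3 with the lowest Tpsb2, and the 2 with the highest index had the highest Tpsb2. Its group means differed by 0.11 (n = 4 and 5), which an exact permutation test put at p = 0.817. With the median deviation of genes in the same GC decile subtracted, the range of Tpsb2 was 2.13 on the log2 scale, against 2.51 before. Its r was then -0.075 with Cpa3, -0.091 with Cma1, -0.10 with Mcpt4 and -0.80 with Kit. That subtraction left r at 0.97 to 0.98 between the chymases and Cpa3. With these genes r was then 0.80 to 0.86 for Fcer1a and 0.45 to 0.56 for Mrgprb2. Beyond these values the part of base composition in the Tpsb2 levels was not tested.

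Ratios between members within a library do not depend on its depth, and 7 were compared, each as a ratio of (FPKM + 0.1). Mcpt4 to Cma1 was the steadiest, from 1.46 in MR4_5 to 1.98 in MXL3_4, and it was 0.13 lower in FJDHF-M on the log2 scale (two-sided exact permutation p = 0.206, unadjusted, n = 4 and 5). Without MXL3_4 that difference was -0.077. Tpsb2 to Cma1 ran from 0.0431 in MR5 to 0.650 in MR3, with a group difference of 0.28 (exact permutation p = 0.786). Hdc to Cpa3 was 0.123 in MXL12 and at most 0.0292 in the other libraries (difference -0.54, exact permutation p = 0.627). The log2 differences of the other ratios were 0.12 for Cpa3 to Kit (exact permutation p = 0.746), -0.33 for Ms4a2 to Fcer1a (p = 0.619), 0.12 for Mrgprb2 to Kit (p = 0.770) and 0.29 for Tpsab1 to Tpsb2 (p = 0.722). In the last ratio Tpsab1 had a count of 0 in MXL3_4. The difference of that ratio was 0.57 on log2(CPM + 0.1), and 0.11 on log2(CPM + 0.5) after subtraction by GC content. As the pseudocounts differ, these values do not show what the subtraction changed. On log2(CPM + 0.5) the group difference was 0.43 for Tpsab1 and 0.35 for Tpsb2 before the subtraction, and 0.39 and 0.28 after it. None of the 7 had an exact permutation p under 0.05.

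Other genes of the pathway were taken from 8 lists with 68 genes, of which 67 were in the table and 62 were tested. No gene of these lists passed the adjusted p, and 1 of 62 had an unadjusted p under 0.05, Il33, beside 1.57% of all tested genes. The median log2 fold change over the tested list genes was -0.041, with 26 above 0 and 36 below.

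Among the other granule proteases, 3 of 6 were tested and their median log2 fold change was -1.12. Gzmb, granzyme B, had 1.55 ± 0.443 FPKM (SD, n = 4) in Model and 1.88 ± 1.31 (SD, n = 5) in FJDHF-M. Ctsg, cathepsin G, had 0.279 ± 0.135 against 0.129 ± 0.0655 FPKM, and its log2 fold change was -1.12 (unadjusted p = 0.0744, edgeR) at no more than 36 counts in any library. The mucosal mast cell proteases Mcpt1 and Mcpt2 had at most 32 and 74 counts and were too low to test, and Mcpt9 was not in the table.

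In the granule matrix list 2 of 6 genes had a log2 fold change above 0 and 4 below. Srgn, the proteoglycan core that carries heparin, had 28.3 ± 19.7 FPKM in Model and 24.5 ± 10.9 in FJDHF-M (log2 fold change -0.23, unadjusted p = 0.662, edgeR). Cd63, a granule membrane protein, had 87.1 ± 12.6 against 92.2 ± 26.6 FPKM.

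For the signalling genes downstream of the IgE receptor, 11 of 18 were above 0 and 7 below, with a median of 0.021. Fcer1g, the γ chain that FcεRI shares with other Fc receptors, had 37.3 ± 18.5 FPKM in Model and 36.5 ± 10.4 in FJDHF-M. It was therefore more abundant than Fcer1a or Ms4a2 by its mean FPKM, and macrophages and other myeloid cells use it too. Grb2, an adaptor of many receptors, had 28.9 ± 2.58 against 28.7 ± 2.46 FPKM.

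The ligand and transcription factor list had 4 genes above 0 and 5 below. Kitl, which encodes stem cell factor, had 17.3 ± 4.26 FPKM in Model and 17.4 ± 2.62 in FJDHF-M, a log2 fold change of -0.013 (unadjusted p = 0.948, edgeR). Mitf, a factor that mast cells and melanocytes share, had 7.81 ± 0.444 against 7.18 ± 1.12 FPKM.

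Of the other surface receptors 2 of 10 were above 0 and 8 below, and the median was -0.43. Among those below 0, Mrgpra4, Il3ra and Mrgprb3 had at most 48, 62 and 75 counts in any library. Mrgprb1, a relative of Mrgprb2, had 5.59 ± 1.55 FPKM in Model and 6.34 ± 2.23 in FJDHF-M (log2 fold change 0.15, unadjusted p = 0.605, edgeR). Cd34, also a gene of endothelial and stem cells, had 72.0 ± 32.4 against 51.0 ± 12.8 FPKM (log2 fold change -0.53, unadjusted p = 0.117).

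The eicosanoid list had 3 genes above 0 and 3 below. Alox5ap, which presents arachidonic acid to the leukotriene enzyme, had 20.5 ± 7.06 FPKM in Model and 24.9 ± 8.78 in FJDHF-M, and Ptgs1, a cyclooxygenase, had 8.14 ± 2.57 against 10.4 ± 1.13. In the list of histamine receptors and breakdown, Hnmt, which methylates histamine, had 5.92 ± 1.06 against 5.92 ± 2.38 FPKM, and Hrh1, the histamine receptor behind itch and wheal, had 0.879 ± 0.166 against 1.22 ± 0.455 FPKM (log2 fold change 0.45, unadjusted p = 0.216, edgeR).

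Il33, an alarm cytokine of epithelial cells that acts on mast cells through ST2 (Il1rl1), had 8.86 FPKM in MXL1, 90.3 in MXL12, 9.39 in MXL3_4 and 22.4 in MXL_3. In FJDHF-M the FPKM of Il33 was 10.8 in MR1, 9.85 in MR3, 14.9 in MR3_4, 12.4 in MR4_5 and 16.3 in MR5. The groups overlapped, and the library with high Hdc was again the highest. MXL1 and MXL3_4 lay below every FJDHF-M library, and MXL12 and MXL_3 lay above every one. Il33 had a log2 fold change of -1.37 with a standard error of 0.62 (unadjusted p = 0.0496, adjusted p = 1.00, edgeR). A fit without MXL12 is not given for this gene. Tnf, a cytokine that mast cells can store, had 1.99 ± 2.23 against 1.18 ± 0.792 FPKM. Il1rl1, named after its values were seen, had 21.6 FPKM in MXL12 and 2.01 to 5.89 FPKM elsewhere. The heavy chain of IgE itself, Ighe, had 0 FPKM in each Model library and at most 19 counts in FJDHF-M, too low to test, and Il13 had at most 20 counts.

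The genes whose pattern was most like that of the members together were ranked by Pearson's r over the 9 libraries, among 20807 tested genes that are no members. The reference was the mean of the members' centred log2 levels, to which the deviation of 3.23 of Hdc in MXL12 contributed as 1 of 10 values. First stood Hpgds (r = 0.95), the enzyme that makes prostaglandin D2 in mast cells and other hematopoietic cells. Ets1, Tlr13, Pilrb2, Pira2, Dtx3l, Cd300c2, Ifi44, Dgkh and Mup9 followed, with r from 0.94 down to 0.92. Ets1 is a transcription factor of lymphoid and endothelial cells, Tlr13 a sensor of bacterial RNA, and Dtx3l and Ifi44 are genes that interferon induces. Pira2, Pilrb2 and Mup9 belong to families of near-identical copies, so their counts are uncertain. Of the 62 pathway genes, 3 were among the 100 highest of the 20807 genes ranked, namely Hpgds, Mrgprb1 (r = 0.89) and Ext1 (r = 0.86). Of 79 marker genes 2 were among these 100, Cd200r3 of the basophil list (r = 0.90) and Emcn of the endothelial list (r = 0.87).

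Against single members, an analysis added after the data were seen, the neighbours differed. Gpr82, a receptor with no known ligand, had the highest r with Cma1 (0.97), with Mcpt4 (0.96) and with Cpa3 (0.98), and its transcript had 35.0% GC. Tpsb2 was most like Vwf, Pik3cd, Dok2, Pld4 and Blvrb (r = 0.98 to 0.99), whose transcripts had 53.7% to 57.6% GC. After subtraction by GC content the r of these 5 genes with Tpsb2 was 0.96 to 0.98.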

How the data were processed

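RNA was sequenced from both ends on back skin of mice of the Model and FJDHF-M groups. The authors deposited raw whole-number counts for each gene, and FPKM values normalized to transcript length and library depth. The submitters' processing notes list HISAT, StringTie, DESeq2 and mm10, without versions of the tools. A further 9 columns of counts in the FPKM table were not used. Counts were fitted with edgeR 4.0.16 in R 4.3.3 (filterByExpr, TMM, quasi-likelihood, Benjamini-Hochberg over all tested genes). DESeq2 1.42.0, and limma 3.58.1 on log2(FPKM + 1), were alternatives. Single levels used log2(CPM + 0.5) and two-sided exact permutation tests written in Python 3.11.15. Rank correlations used scipy 1.17.1. The spread was taken between libraries, so p values measure only that. The steps were tested on simulated data. GC content, coding sequences and overlaps came from GENCODE M21, promoters from RefSeq (GRCm38.p6).

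The members, the pathway and marker lists and the tests were chosen with earlier results of these data known. Named genes were the 10 members, of each pathway list the genes at an unadjusted p under 0.05 and the 2 with the highest mean FPKM, and the 10 genes most like the members' mean. S100a9, Ngp, Camp, Mcpt8, Cd200r3, Prss34, Il3ra, Il4, Il1rl1, Mrgpra4, Mrgprb3 and the neighbours of single members were singled out after their values were seen. Alternatives were other size factors, tests, filters on low counts, marker scores or the GC index as covariates, other pseudocounts, ranks, GC subtraction, a replicate block from the number in the column code, and each library left out in turn.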

Additional observations from a re-analysis of the deposited data

Results flagged for a closer look

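Libraries that stood apart within their group were looked for by Dixon's ratio, in which the distance of the end value from the next one is taken over the whole range of that group. It was computed for 70 groups of values, on member levels, FPKM and marker scores, and 3 passed the 95% critical value, where 3.5 are expected by chance. Hdc in MXL12 stood above the other Model libraries in FPKM (ratio 0.961), whereas on the log2 scale it did not pass. Ms4a2 in MR5 stood above the other FJDHF-M libraries in FPKM (ratio 0.804), and it did not pass on the log2 scale either. The Langerhans and dendritic cell marker score of MXL_3, 3.32, lay below the other Model libraries (ratio 0.880), inside the range of 2.94 to 3.64 of FJDHF-M.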

How the results depend on the processing

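No member passed an adjusted p under any alternative run. The number of genes called at an adjusted p with a 2-fold change was 2 with DESeq2's Wald test and 0 in each other fit. Genes at an unadjusted p numbered 905 without a filter on low counts, where more genes were tested, and 490 with the GC index as a covariate. Pathway genes at an unadjusted p numbered 0 without that filter and 2 with the skeletal muscle score as a covariate or with DESeq2. With the neutrophil score as a covariate the log2 fold change was 0.063 for Mcpt4 and 0.091 for Fcer1a, and the difference of Hdc in ranks was 1.35. The causes of these changes were not tested. DESeq2 gave no p for Hdc. Depth limits Tpsab1 most, with 0 to 79 counts, and each other member had at least 121 counts in every library.

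With 1 library left out, genes at an unadjusted p numbered 217 (without MR4_5) to 734 (without MXL1), pathway genes 0 to 2, and members 0 to 1. The member was Ms4a2 without MR5, and Hdc without MXL1, MXL3_4 or MXL_3. Log2 fold changes then ran from -0.072 to 0.27 for Cma1, -0.19 to 0.12 for Mcpt4, -0.12 to 0.57 for Tpsb2, 0.54 to 1.34 for Tpsab1, -0.18 to 0.23 for Cpa3, -0.33 to 0.023 for Kit, -0.42 to 0.085 for Fcer1a, -0.97 to 0.020 for Ms4a2, -2.12 to 0.49 for Hdc and -0.12 to 0.19 for Mrgprb2. Differences in mean log2 level ran from -0.079 to 0.30 for Cma1, -0.21 to 0.14 for Mcpt4, -0.087 to 0.77 for Tpsb2, -0.18 to 0.23 for Cpa3, -0.30 to 0.058 for Kit, -0.38 to 0.11 for Fcer1a, -1.05 to 0.44 for Hdc and -0.14 to 0.19 for Mrgprb2. This range kept its sign for Ms4a2, at -0.83 to -0.16, and for Tpsab1, at 0.23 to 0.56. Differences in mean log2 ratio ran from -0.17 to -0.077 for Mcpt4 to Cma1, -0.22 to 0.84 for Tpsb2 to Cma1, -0.14 to 0.66 for Tpsab1 to Tpsb2, -0.16 to 0.33 for Cpa3 to Kit, -0.70 to 0.060 for Ms4a2 to Fcer1a, -0.94 to 0.25 for Hdc to Cpa3 and -0.10 to 0.31 for Mrgprb2 to Kit.

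A replicate block was fitted on the numbers that column codes of both groups share. In 3 such pairs the correlation of deviations was -0.219 to 0.225, so the numbers were not taken to pair the libraries. MXL12, MR4_5 and MR5 were in none of these pairs. The group difference in the block fit therefore rested on the 3 pairs alone. With the replicate block the log2 fold change was 0.018 for Mcpt4, 0.47 for Hdc, -0.30 for Mrgprb2, 0.68 for Tpsb2 and -1.14 for Ms4a2 (unadjusted p = 0.0591), and 0 pathway genes and 0 members had an unadjusted p under 0.05.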
